A study of Homo sapiens with 9 samples.

Results

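KRR1 and PHLDA1 are neighbouring genes of human chromosome 12 whose promoters lie at the 2 ends of 1 cluster of distal sites, and both were viewpoints in a Capture-C experiment on HCT-116 cells. HCT-116 cells are an established line from a human colorectal carcinoma, and the HCT-116 MED14-dTAG derivative carries a tag on MED14, the backbone subunit of the Mediator complex, through which a dTAG ligand has the subunit degraded. Capture-C counts how often a chosen promoter, the viewpoint, was ligated to each DpnII restriction fragment of the genome. Libraries came from cells given dTAG ligand for 2 h together with the BET bromodomain inhibitor I-BET for 90 min (dTAG+I-BET, n = 3), from cells given dTAG ligand for 2 h (dTAG, n = 3), and from cells given DMSO (n = 3). All 9 libraries came from the tagged line, so that no untagged cells and no cells given I-BET alone were compared. The 2 viewpoints were taken by name out of 20, with every DpnII fragment on chromosome 12 within 500 kb of each gene's own start site: 2231 fragments for KRR1 and 2351 for PHLDA1.

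Enhancers are stretches of DNA that bind transcription factors and raise the transcription of a promoter that may lie far away, and 1 cluster of enhancers can contact several promoters. Mediator bridges transcription factors at enhancers and RNA polymerase II at promoters, and cohesin is the ring complex that extrudes chromatin loops. KRR1 encodes a nucleolar protein of the small subunit processome, which builds the small ribosomal subunit. PHLDA1 encodes a pleckstrin homology-like domain protein that growth factor and MAP kinase signalling induces in many cell types. BET proteins read acetylated histones at active enhancers and promoters, and I-BET displaces them.

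In hg38 with GENCODE 44, KRR1 (ENSG00000111615.14) lies on the minus strand at chr12:75490863-75511636, and PHLDA1 (ENSG00000139289.15) lies on the minus strand at chr12:76025447-76031776. Their start sites are 520140 bp apart. The side that faces the other gene, called inner here, is therefore the upstream side of KRR1 and the downstream side of PHLDA1, and the side that faces away is called outer. Between the 2 start sites the annotation holds 0 start sites of other protein-coding genes and 11 of other kinds, namely 5 lncRNAs, 4 processed pseudogenes, 1 snoRNA and 1 misc_RNA. The sequence more than 20 kb from both start sites, chr12:75531776-76011636, spans 479.9 kb and was seen by both viewpoints through the same fragments, of which 1143 carried a value in both tables. It holds 12 sites from a list of places that lose the cohesin subunit SMC1A after dTAG, which was made by CUT&Tag, another assay, in the same cells. Only the positions in that list were used here, and whether each site is an active enhancer was not tested. All 12 lie within the lncRNA gene ENSG00000258077.

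The promoters of both viewpoints are shown because the contacts of these promoters were counted. Each run is the 250 bases before the RefSeq start of the gene (GRCh38), written 5′ to 3′ on the minus strand, with the DpnII cut motif GATC in capitals. The KRR1 run is chr12:75511610-75511859 and the PHLDA1 run is chr12:76031777-76032026.
KRR1: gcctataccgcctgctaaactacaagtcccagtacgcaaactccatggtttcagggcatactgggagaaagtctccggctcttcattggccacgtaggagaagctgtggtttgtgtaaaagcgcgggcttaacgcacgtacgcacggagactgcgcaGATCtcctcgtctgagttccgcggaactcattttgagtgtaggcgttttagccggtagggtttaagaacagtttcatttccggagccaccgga
PHLDA1: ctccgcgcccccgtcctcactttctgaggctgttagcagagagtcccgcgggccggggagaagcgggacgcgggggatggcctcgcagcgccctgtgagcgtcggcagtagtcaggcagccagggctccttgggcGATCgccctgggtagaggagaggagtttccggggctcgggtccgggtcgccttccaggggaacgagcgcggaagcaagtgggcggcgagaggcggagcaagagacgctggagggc

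Each promoter held 1 GATC in these 250 bases, and 35.8% of 35116 RefSeq promoters of that length held at least 1. GC content was 52.8% with 18 CG pairs at KRR1 and 70.4% with 26 CG pairs at PHLDA1, against a median GC content of 58% over all promoters. The deposited tables list no value for a stretch around each start, which covers 3281 bp at KRR1 and 1582 bp at PHLDA1. The positions of the capture probes are not given in the sources used here.

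The middle 300 bases of sites 2, 3, 5 and 12 are shown because the KRR1 contacts of these 4 sites passed a test described below. They are read from hg38 on the plus strand, at chr12:75660225-75660524 for site 2, chr12:75667064-75667363 for site 3, chr12:75714579-75714878 for site 5 and chr12:75954085-75954384 for site 12. Capitals mark TGANTCA, searched on both strands (the reverse complement of TGANTCA has the same letters). The consensus of the AP-1 transcription factors is narrower, with C or G as the middle base. The match at site 2 (TGACTCA) has that form, and those at sites 5 and 12 (TGAATCA) do not. Site 3 has no TGANTCA in this window.
site 2: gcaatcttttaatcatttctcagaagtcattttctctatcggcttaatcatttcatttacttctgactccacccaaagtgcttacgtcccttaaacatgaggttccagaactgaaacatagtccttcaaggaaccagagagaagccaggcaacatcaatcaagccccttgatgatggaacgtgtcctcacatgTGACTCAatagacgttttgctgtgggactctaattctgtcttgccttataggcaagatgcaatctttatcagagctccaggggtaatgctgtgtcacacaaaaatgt
site 3: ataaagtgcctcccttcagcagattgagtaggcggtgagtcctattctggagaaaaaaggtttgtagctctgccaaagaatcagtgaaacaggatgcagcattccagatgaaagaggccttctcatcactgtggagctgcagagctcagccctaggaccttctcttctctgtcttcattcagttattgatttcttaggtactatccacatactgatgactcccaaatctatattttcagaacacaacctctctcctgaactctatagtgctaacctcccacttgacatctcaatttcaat
site 5: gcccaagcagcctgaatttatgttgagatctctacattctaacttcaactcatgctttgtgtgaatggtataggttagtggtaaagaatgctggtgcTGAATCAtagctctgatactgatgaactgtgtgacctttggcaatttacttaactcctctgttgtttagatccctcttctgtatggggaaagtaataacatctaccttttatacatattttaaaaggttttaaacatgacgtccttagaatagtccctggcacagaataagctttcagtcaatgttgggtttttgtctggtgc
site 12: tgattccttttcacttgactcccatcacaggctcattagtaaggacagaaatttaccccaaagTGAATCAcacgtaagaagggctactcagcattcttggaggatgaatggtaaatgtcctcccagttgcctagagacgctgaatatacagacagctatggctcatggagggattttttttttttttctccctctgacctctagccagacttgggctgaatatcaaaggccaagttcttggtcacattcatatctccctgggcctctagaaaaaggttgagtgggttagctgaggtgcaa

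TGANTCA was found in the middle 300 bases of 7 of the 12 sites and of 512 of all 881 sites of the cohesin list (58.1%), and in the 250 bases of 6.57% of the promoters. A match describes the letters only, and the counts of TGANTCA allow any middle base, so they are not counts of the AP-1 consensus. GATC was found in 3 of these 12 stretches and in 51.0% of the 881.

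The deposited values are interactions per fragment that the authors scaled per viewpoint and library, and they are called signal here and given per kb. Per library, 27341 to 51021 interactions lay within the chromosome for KRR1 and 18366 to 31290 for PHLDA1. In dTAG replicate 3 a smaller part of them lay from 10 to 500 kb than in the other 8 libraries: 26.3% against 35.2% to 39.4% for KRR1, and 47.0% against 52.2% to 56.7% for PHLDA1. Its signal was low on both sides of both genes, so levels that rest on it are given with it left out where that matters, and ratios taken within a library are given beside levels. The KRR1 and PHLDA1 tables were scaled separately, so a level of one viewpoint was not tested against a level of the other.

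In DMSO, KRR1 contacted its inner side more than its outer side. The mean signal from 10 to 500 kb was 453 ± 27.9 per kb on the inner side and 275 ± 15.6 on the outer side (SD, n = 3). For PHLDA1 it was 759 ± 19.0 per kb on the inner side and 274 ± 14.1 on the outer side. Inner over outer was above 1 in 9 of 9 libraries at each gene, 1.20-fold to 1.67-fold for KRR1 (mean 1.38-fold) and 2.68-fold to 3.07-fold for PHLDA1 (mean 2.84-fold). The two-sided exact sign-flip permutation test gave p = 0.00391 for each gene, the smallest p that 9 libraries allow. These 9 libraries pool the 3 treatments, so the test is not one of DMSO alone, for which 3 libraries are too few. The KRR1 ratio also differed between treatments, as given below. Among the 20 viewpoints, ranked by the stronger over the weaker side in DMSO, PHLDA1 was the 3rd most one-sided (2.77-fold) and KRR1 the 12th (1.64-fold), within a range of 1.10-fold at KRT19 to 3.22-fold at ERRFI1.

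The stretch between the genes looked different from its 2 ends. For KRR1, mean DMSO signal over 10-kb bins of the fragments listed for both genes ran from 1221 per kb at the end near KRR1 to 184 per kb, and a line on distance fell by 2.27 on the log2 scale for each unit of log10 distance. For PHLDA1 it ran from 1182 to 341 per kb, and the same line fell by 0.68. The highest shared bin of PHLDA1 was not near PHLDA1 but 235 kb from KRR1, over site 6, with 1182 per kb. The next highest, at 455 and 445 kb from KRR1, lay beside and over site 12, with means of 1092 and 1070 per kb.

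**Figure D1:**
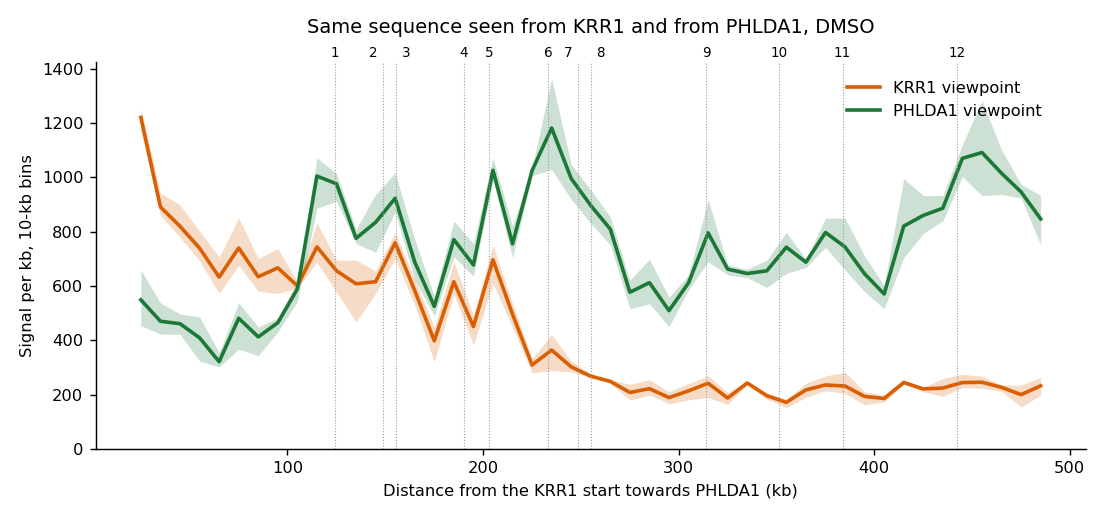
Mean signal per kb in 10-kb bins over the stretch between the genes, in DMSO, from the KRR1 viewpoint (orange) and the PHLDA1 viewpoint (green), against distance from the KRR1 start. Shading spans the lowest to the highest of 3 libraries, dotted lines mark the 12 cohesin-lost sites, and the PHLDA1 line peaks over site 6 at 1182 per kb, while the KRR1 line is highest at the KRR1 end, at 1221 per kb.

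Set against the other 18 viewpoints at the same distance, PHLDA1 stood high far from its start. From 250 to 500 kb on its inner side, each of its 25 bins was above the median of the other viewpoints, at 4.10-fold in the median bin (2.32-fold to 7.14-fold). From 100 to 250 kb the median was 1.799-fold, with 15 of 15 bins above 1. For KRR1 the inner side was 1.40-fold from 100 to 250 kb (13 of 15 bins above 1) and 1.32-fold from 250 to 500 kb (19 of 25 bins). The outer side had a median of 0.664-fold for KRR1 and 0.809-fold for PHLDA1. The median of the other viewpoints took both of their sides together, so a stronger side was set against a mix of stronger and weaker sides. No range of the other viewpoints is given here. These ratios are descriptions over bins of tables that were scaled separately.

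Over the shared 10-kb bins the 2 DMSO profiles were weakly and negatively correlated (Pearson r = -0.29, Spearman rho = -0.11, 47 bins). After a line on log10 distance was taken out of each, r was 0.60 and rho 0.57. Over the 1143 shared fragments, before such a correction, r was 0.36 and rho 0.49. The 2 profiles share libraries, fragment lengths and base composition, and neighbouring bins are not independent, so these are descriptions.

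Each gene's neighbourhood was also contacted by the other gene. In the KRR1 table, the 20 kb around the PHLDA1 start had 333, 344 and 357 per kb in dTAG+I-BET, 322, 367 and 324 in dTAG and 364, 337 and 341 in DMSO. The window mirrored to the other side of KRR1 had 105, 93.7 and 101 per kb in dTAG+I-BET, 132, 106 and 81.0 in dTAG and 88.4, 95.7 and 75.8 in DMSO. The PHLDA1 window was higher in every library, by 2.44-fold to 4.49-fold (mean 3.56-fold). In the PHLDA1 table, the 20 kb around the KRR1 start had 500, 548 and 412 per kb in dTAG+I-BET, 546, 634 and 482 in dTAG and 540, 544 and 583 in DMSO. Its mirrored window had 113 to 176 per kb, and the KRR1 window was higher by 2.91-fold to 4.85-fold (mean 3.57-fold, 9 of 9 libraries). These folds include the one-sidedness of each gene. Both starts were viewpoints in the same libraries, while the mirrored windows hold no viewpoint. How ligations between 2 viewpoints were enriched or filtered is not given in the sources used here. Its effect on these folds and on the levels around each start was not tested. From 250 to 500 kb, mean DMSO signal was 721 inner and 211 outer at PHLDA1, and 220 and 101 at KRR1. Seen from PHLDA1, the DMSO mean around the KRR1 start (555 per kb) was close to that of the shared bin 25 kb from KRR1 (549). Seen from KRR1, the DMSO mean around the PHLDA1 start (347) was above that of the shared bin 485 kb from KRR1 (232). In both directions the 3 treatments overlapped in the 20 kb around the starts (exact permutation p from 0.3 to 1, with 0.1 the smallest that 3 against 3 libraries allow). With 5 kb on each side of the PHLDA1 start, KRR1 had 335, 365 and 370 per kb in dTAG+I-BET, 320, 311 and 317 in dTAG and 348, 335 and 354 in DMSO. There all dTAG libraries lay below the others (exact permutation p = 0.1 against DMSO and against dTAG+I-BET), while the groups overlapped around the KRR1 start seen from PHLDA1.

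With treatment, the sides of KRR1 were closer to balance, while those of PHLDA1 overlapped between groups. For KRR1, log2 inner over outer was 0.30, 0.27 and 0.28 in dTAG+I-BET, 0.33, 0.42 and 0.42 in dTAG and 0.74, 0.70 and 0.71 in DMSO. All treated libraries lay below all DMSO libraries, and all dTAG+I-BET libraries below all dTAG libraries. The difference from DMSO was -0.43 in dTAG+I-BET and -0.33 in dTAG, and dTAG+I-BET differed from dTAG by -0.11 (exact permutation p = 0.1 each, the smallest that 3 against 3 libraries can give). Both differences from DMSO use the same 3 DMSO libraries. For PHLDA1, the ratio was 1.42, 1.48 and 1.53 in dTAG+I-BET, 1.60, 1.48 and 1.62 in dTAG and 1.44, 1.54 and 1.43 in DMSO. These overlapped, with differences of 0.01 (exact permutation p = 1), 0.09 (p = 0.2) and -0.09 (p = 0.3) for the same 3 pairs. The difference between the genes in this ratio was not tested.

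Such a shift was not rare among the 20 viewpoints. The dTAG libraries were all lower than the DMSO libraries at 8 of 20 viewpoints (40.0%), all dTAG+I-BET libraries below all DMSO libraries at 10 of 20 (50%), and all dTAG+I-BET libraries below all dTAG libraries at 4 of 20 (20%), counting for the others the side that was stronger in DMSO. By size, KRR1 was 6th lowest for dTAG against DMSO and 2nd lowest for dTAG+I-BET against DMSO, and PHLDA1 was 17th and 16th. HMGA2 was lowest and MYC highest in both.

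**Figure D2:**
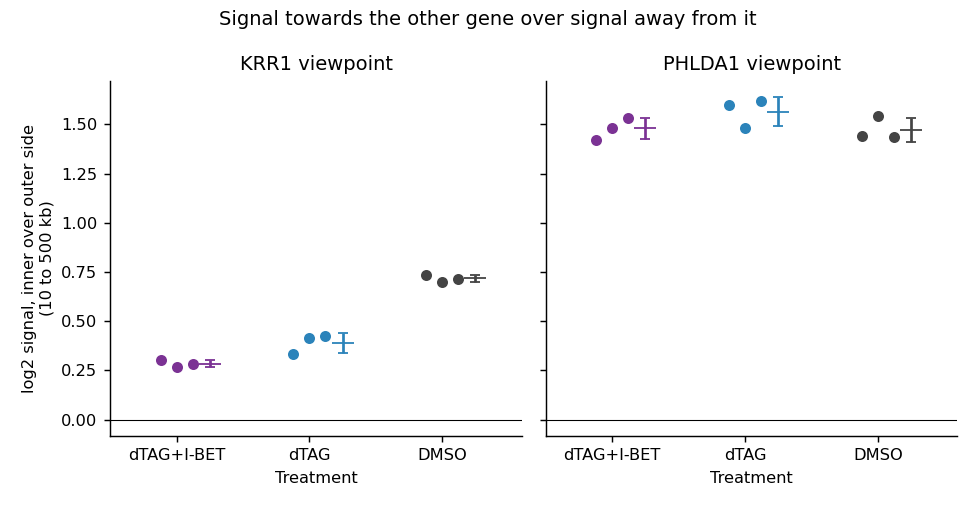
log2 of signal per kb from 10 to 500 kb on the inner side (towards the other gene) over the outer side, per library, for dTAG+I-BET, dTAG and DMSO at KRR1 (left) and PHLDA1 (right). Points are libraries, and bars give the mean and SD of 3; the KRR1 treated libraries lie between 0.27 and 0.42 and its DMSO libraries between 0.70 and 0.74, while the PHLDA1 groups overlap.

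Signal was then compared in bands of distance on each side. From 250 to 500 kb on the outer side of KRR1, which holds KCNC2 (a voltage-gated potassium channel gene), signal was 137, 132 and 132 per kb in dTAG+I-BET, 134, 126 and 106 in dTAG and 98.5, 107 and 98.8 in DMSO. All dTAG+I-BET libraries were above all DMSO libraries, and the band rose by 0.39 ± 0.09 on the log2 scale (SE, limma with Benjamini-Hochberg adjustment over 160 bands, adjusted p = 0.00834). It was the 1 band of KRR1 called for dTAG+I-BET against DMSO, where 17 of 160 bands of all viewpoints were called (10.6%) and 13 rose (8.12%). For dTAG against DMSO its difference was 0.26 (adjusted p = 0.0945), and no band of KRR1 or PHLDA1 was called, while 11 of 160 were over all viewpoints (6.88%). At an unadjusted p under 0.05, limma gave 3 KRR1 bands and 0 PHLDA1 bands, and edgeR called 2 and 1, where 29 of 160 (18.1%) and 30 of 160 (18.8%) passed over all viewpoints.

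From 100 to 250 kb on the inner side of KRR1, which holds sites 1 to 7, signal was 399, 414 and 414 per kb in dTAG+I-BET, 439, 464 and 324 in dTAG and 584, 557 and 498 in DMSO. All treated libraries were below all DMSO libraries. The differences were -0.41 (adjusted p = 0.0595) for dTAG+I-BET and -0.43 (adjusted p = 0.073) for dTAG. Without dTAG replicate 3, 5 KRR1 bands were called in dTAG+I-BET and 3 in dTAG, each against DMSO, where 56 of 160 bands (35.0%) and 36 of 160 (22.5%) were called over all viewpoints.

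For PHLDA1, 0 bands were called for dTAG+I-BET against DMSO by limma (2 at an unadjusted p under 0.05, and 2 by edgeR, against 40 and 47 of 160 over all viewpoints). The lowest p was that of 10 to 50 kb on its inner side, with 1410, 1463 and 1415 per kb in dTAG+I-BET, 1282, 1174 and 933 in dTAG and 1087, 1056 and 970 in DMSO. All dTAG+I-BET libraries lay above the others, by 0.46 on the log2 scale against DMSO (adjusted p = 0.0592). From 250 to 500 kb on the inner side, which holds sites 1 to 8, it had 681, 673 and 707 per kb in dTAG+I-BET, 724, 697 and 665 in dTAG and 718, 720 and 725 in DMSO, and the differences were -0.07 (adjusted p = 0.78) and -0.05 (adjusted p = 0.799). The dTAG+I-BET libraries lay just below the DMSO libraries there, and the dTAG libraries overlapped them. For dTAG+I-BET against dTAG, no band of any viewpoint was called (0.0%). At an unadjusted p under 0.05 limma gave 0 KRR1 bands and 3 PHLDA1 bands, and edgeR called 0 for either gene. Over all viewpoints 13 of 160 bands passed at that unadjusted p (8.12%).

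**Figure D3:**
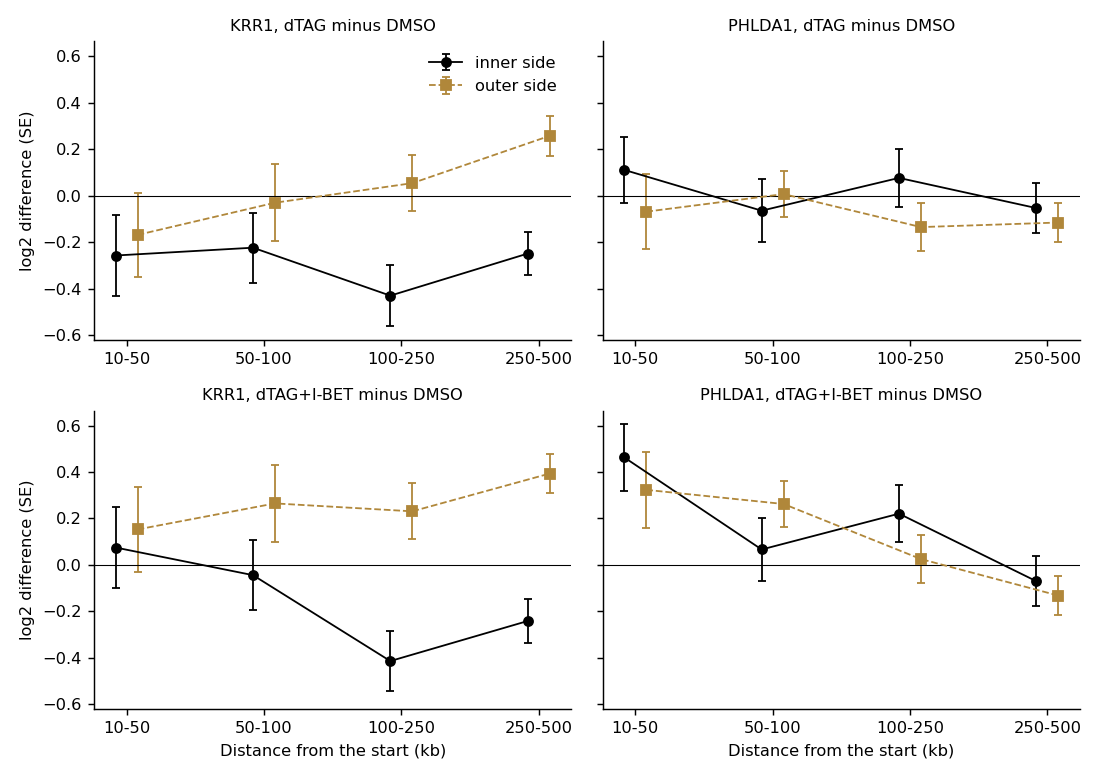
log2 difference in signal per kb with its SE from limma, by distance from the start (kb), on the inner side (black, circles) and the outer side (brown, squares), for dTAG minus DMSO (top) and dTAG+I-BET minus DMSO (bottom). At KRR1 (left) the inner points from 100 to 250 kb are at -0.43 and -0.41 and the outer points from 250 to 500 kb at 0.26 and 0.39; at PHLDA1 (right) the inner points from 250 to 500 kb are at -0.05 and -0.07.

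The 12 cohesin-lost sites, each with 5 kb added on both sides and merged to 117.8 kb, were seen by both promoters through the same windows. For KRR1 they had 297, 310 and 286 per kb in dTAG+I-BET, 324, 335 and 244 in dTAG and 395, 402 and 360 in DMSO. All treated libraries lay below all DMSO libraries. limma, fitted over the 19 viewpoints that have such sites, gave differences of -0.37 ± 0.12 for dTAG+I-BET against DMSO (SE, adjusted p = 0.0558) and -0.37 ± 0.12 for dTAG against DMSO (adjusted p = 0.0674), neither past the threshold of 0.05. Without dTAG replicate 3 the dTAG difference was -0.23 (adjusted p = 0.0454) and that of dTAG+I-BET -0.37 (adjusted p = 0.00108), and edgeR on the interactions gave -0.32 (adjusted p = 0.000991) for dTAG+I-BET and -0.25 (adjusted p = 0.00695) for dTAG.

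For PHLDA1 the same windows had 781, 799 and 850 per kb in dTAG+I-BET, 877, 826 and 747 in dTAG and 905, 856 and 848 in DMSO. The groups overlapped, and the differences were -0.10 ± 0.10 (adjusted p = 0.472) and -0.09 ± 0.10 (adjusted p = 0.438). For dTAG+I-BET against dTAG the difference was -0.0018 for KRR1 and -0.01 for PHLDA1 (adjusted p = 0.999 each). Over the 19 viewpoints, limma called 0 for dTAG against DMSO (0.0%, with 4 at an unadjusted p under 0.05) and 1 for dTAG+I-BET against DMSO (5.26%, with 7 at an unadjusted p under 0.05). That 1 call was a rise, at neither KRR1 nor PHLDA1. edgeR called KRR1 in both comparisons and PHLDA1 in neither. How many of the 19 viewpoints edgeR called is not given here, so its KRR1 calls were not set against the others. KRR1 ranked 2nd lowest of 19 for dTAG against DMSO, after MTAP (-0.44), and lowest for dTAG+I-BET against DMSO. PHLDA1 ranked 14th and 11th, and EREG was highest in both (0.20 and 0.43).

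Whether the 2 promoters differed in their change was tested on log2 KRR1 minus log2 PHLDA1 within each library. It was -1.39, -1.36 and -1.57 in dTAG+I-BET, -1.44, -1.30 and -1.61 in dTAG and -1.19, -1.09 and -1.23 in DMSO. All treated libraries were below all DMSO libraries, so that the KRR1 signal was lower relative to that of PHLDA1 over the same windows. The difference from DMSO was -0.27 in dTAG+I-BET and -0.28 in dTAG (exact permutation p = 0.1 each, the smallest possible), and it was 0.01 for dTAG+I-BET against dTAG (p = 1). A change in the scale of either table would enter this difference. The gap in group means was not limited to the windows. In the rest of the shared stretch, the log2 ratio of group means against DMSO was -0.28 for KRR1 and 0.04 for PHLDA1 in dTAG. In dTAG+I-BET these ratios were -0.18 and 0.14. KRR1 minus PHLDA1 was not tested in that rest, where the dTAG libraries overlapped the DMSO libraries at both genes.

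The rest of the shared stretch, outside the windows, was compared next. For KRR1 it had 374, 372 and 388 per kb in dTAG+I-BET, 381, 400 and 276 in dTAG and 456, 430 and 397 in DMSO, where all dTAG+I-BET libraries were below all DMSO libraries. For PHLDA1 it had 771, 780 and 769 per kb in dTAG+I-BET, 770, 734 and 652 in dTAG and 715, 699 and 690 in DMSO, where all dTAG+I-BET libraries were above all DMSO libraries (exact permutation p = 0.1 each).

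Sites relative to the rest were also compared within each library, which takes the scale of a table out. For KRR1, sites over rest was 0.795, 0.833 and 0.738 in dTAG+I-BET, 0.850, 0.839 and 0.886 in dTAG and 0.866, 0.936 and 0.907 in DMSO. For PHLDA1 it was 1.01, 1.02 and 1.10 in dTAG+I-BET, 1.14, 1.13 and 1.15 in dTAG and 1.27, 1.22 and 1.23 in DMSO. With these windows the 3 PHLDA1 groups stood apart in every pair, with log2 differences of -0.24 between dTAG+I-BET and DMSO, -0.12 between dTAG and DMSO and -0.12 between dTAG+I-BET and dTAG (exact permutation p = 0.1 each). For KRR1 they were -0.20 (exact permutation p = 0.1), -0.07 (p = 0.2, groups overlapping) and -0.12 (p = 0.1). With these windows, the fall from DMSO relative to the rest was therefore no larger from KRR1 than from PHLDA1. The share of signal given below fell more at KRR1. The difference between the genes in sites over rest was not tested. Windows with 2.5 kb added, chosen after seeing the data, gave PHLDA1 differences of -0.13 (exact permutation p = 0.2), -0.018 (p = 0.8) and -0.11 (p = 0.1) for the same pairs, so that the separation from DMSO rested on the window.

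The windows cover 12.02% of the sequence from 10 to 500 kb on both sides. Their share of that signal at KRR1 was 10.1%, 10.3% and 9.38% in dTAG+I-BET, 10.9%, 11.0% and 11.6% in dTAG and 12.4%, 13.1% and 12.7% in DMSO. At PHLDA1 it was 17.0%, 17.4% and 18.5% in dTAG+I-BET, 19.3%, 18.8% and 19.7% in dTAG and 20.4%, 20.3% and 20.01% in DMSO. At both genes the dTAG+I-BET libraries were lowest, the dTAG libraries between and the DMSO libraries highest, with no overlap in any pair (exact permutation p = 0.1 each) when 5 kb was added to each site. On the log2 scale the differences from DMSO were -0.36 for dTAG+I-BET and -0.19 for dTAG at KRR1, and -0.20 and -0.07 at PHLDA1. Between dTAG+I-BET and dTAG they were -0.17 at KRR1 and -0.13 at PHLDA1. At PHLDA1 the difference of dTAG from DMSO was 0.0045 with 2.5 kb added (exact permutation p = 0.9) and -0.042 with 10 kb (p = 0.4), and that of dTAG+I-BET was -0.13 (p = 0.2) and -0.14 (p = 0.1), while at KRR1 every pair kept p = 0.1 under both windows. Of the 19 viewpoints, 6 had all dTAG libraries below all DMSO libraries (31.6%), 11 had all dTAG+I-BET libraries below all DMSO libraries (57.9%), and 6 had all dTAG+I-BET libraries below all dTAG libraries (31.6%).

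**Figure D4:**
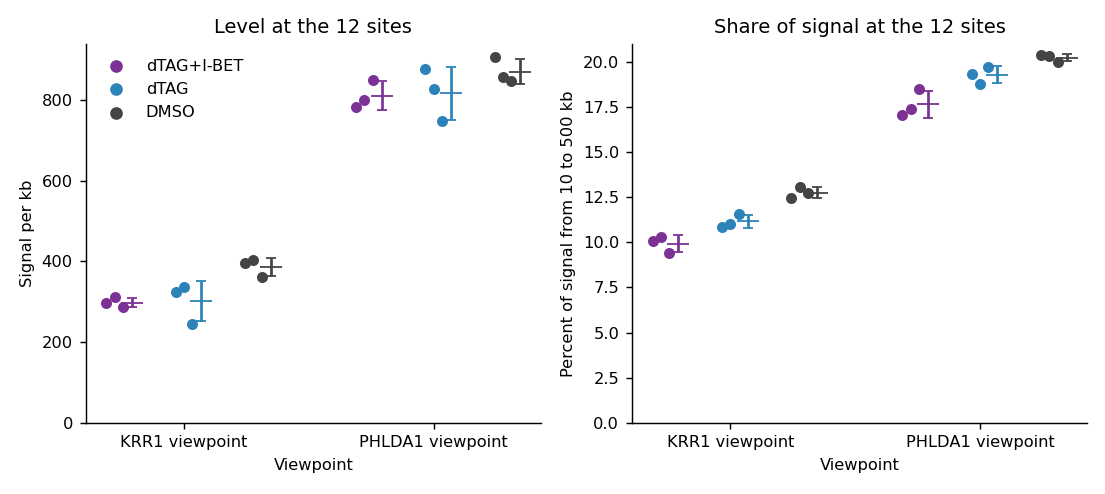
Signal per kb over the merged windows of the 12 sites (left) and their percent of the signal from 10 to 500 kb (right), per library, at the KRR1 and PHLDA1 viewpoints for dTAG+I-BET, dTAG and DMSO. Points are libraries, and bars give the mean and SD of 3; with 5 kb added to each site the share runs in the order dTAG+I-BET, dTAG, DMSO at both genes (with 2.5 or 10 kb dTAG and DMSO are not separated at PHLDA1), from 9.38% to 13.1% at KRR1 and from 17.0% to 20.4% at PHLDA1.

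The sites were then taken singly, each window of 10.4 kb for itself, with limma and adjustment over all 153 pairs of viewpoint and site. For dTAG against DMSO, sites 2, 3 and 5 were called lower from KRR1 and 0 from PHLDA1 (for PHLDA1, 1 at an unadjusted p under 0.05 and 0 by edgeR), where 22 of 153 pairs were called, all lower (14.4%). Of all pairs, 37 of 153 passed at an unadjusted p under 0.05 (24.2%) and edgeR called 24 (15.7%). The KRR1 share, 3 of 12, and that of all pairs rest on overlapping windows, since sites 2 and 3 share sequence, as do sites 7 and 8.

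Site 2 lies 149 kb from KRR1 and 371 kb from PHLDA1. From KRR1 it had 431, 499 and 374 per kb in dTAG+I-BET, 395, 434 and 305 in dTAG and 621, 584 and 551 in DMSO. All treated libraries were below all DMSO libraries, and it fell by 0.64 ± 0.16 on the log2 scale in dTAG (adjusted p = 0.0167). From PHLDA1 it had 541, 629 and 659 per kb in dTAG+I-BET, 690, 513 and 560 in dTAG and 907, 759 and 710 in DMSO, again without overlap, at -0.43 (adjusted p = 0.0738). The 10-kb bin from 140 to 150 kb on the inner side of KRR1 (chr12:75651636-75661635), which overlaps site 2, was the 1 KRR1 bin called for dTAG against DMSO.

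Site 3 lies 156 kb from KRR1 and 365 kb from PHLDA1. From KRR1 it had 474, 493 and 415 per kb in dTAG+I-BET, 515, 562 and 282 in dTAG and 698, 710 and 636 in DMSO, and fell by 0.65 ± 0.20 in dTAG (adjusted p = 0.0389). All treated libraries were below all DMSO libraries, but the dTAG libraries spread widely, and without dTAG replicate 3 the difference was -0.34 (adjusted p = 0.0879). From PHLDA1 it had 694, 633 and 698 per kb in dTAG+I-BET, 802, 663 and 588 in dTAG and 902, 762 and 781 in DMSO, at -0.26 (adjusted p = 0.308).

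Site 5 lies 203 kb from KRR1 and 317 kb from PHLDA1. From KRR1 it had 480, 459 and 430 per kb in dTAG+I-BET, 409, 479 and 381 in dTAG and 671, 622 and 521 in DMSO, without overlap between treated and DMSO libraries, and fell by 0.51 ± 0.15 in dTAG (adjusted p = 0.0283). From PHLDA1 it had 743, 726 and 688 per kb in dTAG+I-BET, 777, 838 and 762 in dTAG and 837, 963 and 933 in DMSO, at -0.20 (adjusted p = 0.355). Here all dTAG+I-BET libraries lay below all dTAG libraries from PHLDA1. The calls of sites 2, 3 and 5 were lost when DMSO replicate 1 was left out (adjusted p = 0.0861, 0.145 and 0.164), with values of -0.60, -0.63 and -0.43. Leaving out DMSO replicate 2 ended the calls of sites 3 and 5 (adjusted p = 0.127 and 0.102), leaving out dTAG replicate 1 that of site 5 (adjusted p = 0.0791), and leaving out a dTAG+I-BET library those of site 3 (replicates 1 and 3, adjusted p = 0.061 and 0.0722) and of site 5 (replicate 2, adjusted p = 0.0511).

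For dTAG+I-BET against DMSO, site 12 was called lower from KRR1 and 0 sites from PHLDA1 (for PHLDA1, 2 at an unadjusted p under 0.05 and 0 by edgeR), where 24 of 153 pairs were called (15.7%) and 17 were lower (11.1%). Of all pairs, 46 of 153 passed at an unadjusted p under 0.05 (30.1%) and edgeR called 33 (21.6%). Site 12 is the farthest from KRR1, at 443 kb, and the nearest to PHLDA1, at 77.5 kb. From KRR1 it had 150, 111 and 164 per kb in dTAG+I-BET, 138, 203 and 209 in dTAG and 205, 207 and 238 in DMSO. All dTAG+I-BET libraries were below all DMSO libraries, and it fell by 0.63 ± 0.20 (adjusted p = 0.0361). From PHLDA1 it had 1007, 855 and 1056 per kb in dTAG+I-BET, 933, 940 and 804 in dTAG and 1093, 1054 and 893 in DMSO, overlapping, at -0.06 (adjusted p = 0.825). As few as 37 interactions stood behind a KRR1 value of this site, and its call was lost when dTAG+I-BET replicate 2 (-0.46, adjusted p = 0.178), dTAG+I-BET replicate 1 (-0.68, 0.0941) or any 1 of DMSO replicates 1, 2 and 3 (-0.67, -0.66 and -0.56, adjusted p = 0.0763, 0.0766 and 0.0955) was left out.

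The other 8 sites were called for neither gene in either comparison. For dTAG against DMSO, 11 of 12 sites were below 0 from KRR1 (median -0.27, range -0.65 to 0.00) and 9 of 12 from PHLDA1 (median -0.08, range -0.43 to 0.12), beside a median of -0.20 over all 153 pairs. For dTAG+I-BET against DMSO, 11 were below 0 from KRR1 (median -0.38, range -0.63 to 0.05) and 8 from PHLDA1 (median -0.08, range -0.37 to 0.11), beside a median of -0.17. The KRR1 difference was below the PHLDA1 difference at 11 of 12 sites in both comparisons. These 2 comparisons share the DMSO libraries, and the sites share libraries, so the 11 are no replicates. They are also differences in level, and outside the site windows the KRR1 change in group means likewise lay below that of PHLDA1.

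All dTAG libraries were below all DMSO libraries at 4 of 12 sites from KRR1 and at 1 from PHLDA1, against 38 of 153 pairs (24.8%). All dTAG+I-BET libraries were below all DMSO libraries at 6 from KRR1 and 4 from PHLDA1, against 50 of 153 (32.7%). For dTAG+I-BET against dTAG this held at 0 sites from KRR1 and 1 from PHLDA1, against 7 of 153 (4.58%), and limma called 0 of 153 pairs (0.0%). Of the KRR1 and PHLDA1 pairs, 0 had an unadjusted p under 0.05 and edgeR called 0, against 9 (5.88%) and 5 (3.27%) of all 153 pairs.

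**Figure D5:**
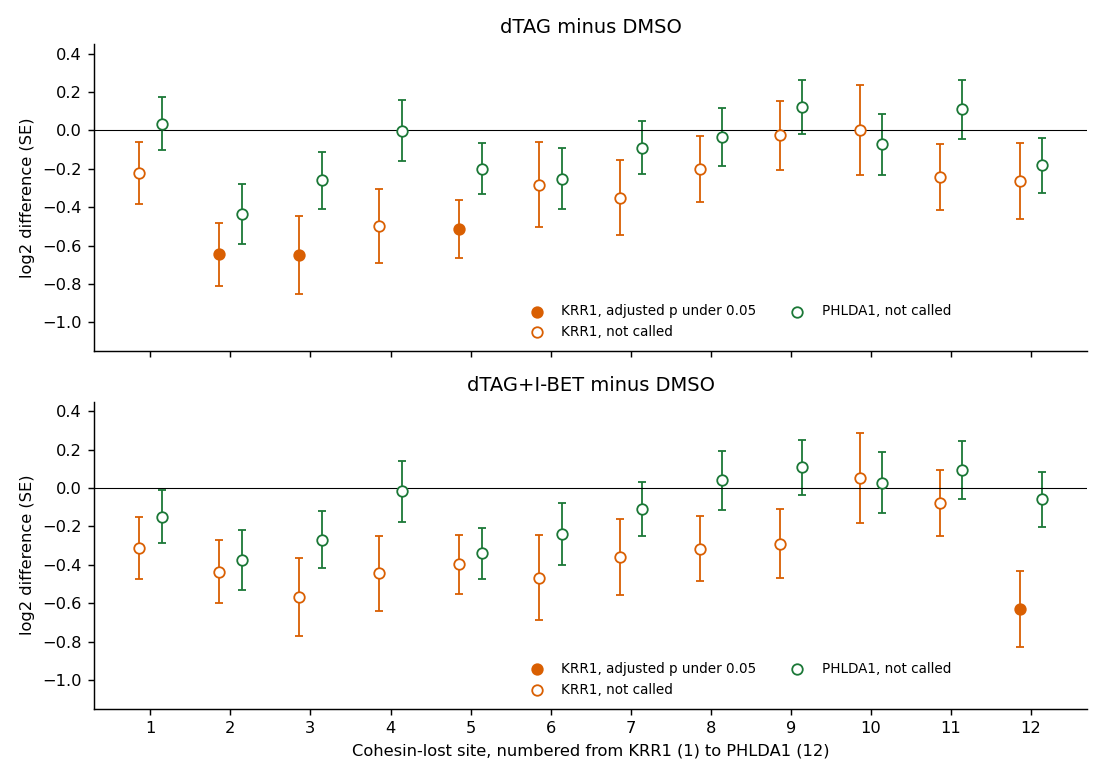
log2 difference in signal per kb with its SE from limma at each of the 12 sites, numbered from KRR1 (1) to PHLDA1 (12), from the KRR1 viewpoint (orange) and the PHLDA1 viewpoint (green), for dTAG minus DMSO (top) and dTAG+I-BET minus DMSO (bottom). Filled points have an adjusted p under 0.05; KRR1 lies below PHLDA1 at 11 of 12 sites in both panels.

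Sites differed in strength by viewpoint. In DMSO, sites 1, 2, 3 and 5 were strongest from KRR1, with means of 695, 586, 681 and 605 per kb, while sites 6 to 12, from 233 kb onwards, had 185 to 336 per kb. From PHLDA1 the strongest were sites 6, 7, 1 and 12, with means of 1100, 1033, 1013 and 1013 per kb, and the weakest was site 4, with 596 per kb. Site 1 lies 396 kb from PHLDA1, and its 3 DMSO libraries (913, 1060 and 1067 per kb) overlapped those of site 12 at 77.5 kb (1093, 1054 and 893 per kb).

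In bins of 10 kb over 98 bins per gene, the KRR1 bin from 140 to 150 kb on the inner side had 440, 419 and 389 per kb in dTAG+I-BET, 386, 476 and 310 in dTAG and 656, 619 and 573 in DMSO. It fell by 0.67 ± 0.17 on the log2 scale in dTAG (adjusted p = 0.047), the 1 KRR1 bin called, and it was at -0.56 in dTAG+I-BET (adjusted p = 0.0617). In dTAG, 29 of 1960 bins of all viewpoints were called (1.48%), 7 lower (0.357%) and 22 higher (1.12%). Its call was lost without DMSO replicate 1 (adjusted p = 0.237), DMSO replicate 2 (0.141), dTAG replicate 1 (0.103) or any 1 of the dTAG+I-BET libraries (up to 0.074), and the difference ran between -0.83 and -0.52 over all fits without 1 library. PHLDA1 had 0 called bins by limma (5 at an unadjusted p under 0.05, 1 by edgeR, against 260 and 111 of 1960 over all viewpoints). Its lowest p was at 450 to 460 kb on the inner side (chr12:75571776-75581775), with 535, 481 and 442 per kb in dTAG+I-BET, 465, 460 and 386 in dTAG and 355, 307 and 302 in DMSO.

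That bin was not called for dTAG against DMSO (0.44, adjusted p = 0.181) and rose by 0.60 ± 0.16 in dTAG+I-BET (adjusted p = 0.0334). The bin from 20 to 30 kb on the inner side of PHLDA1 (chr12:76001776-76011775) had 1252, 1356 and 1173 per kb in dTAG+I-BET, 1046, 926 and 782 in dTAG and 803, 878 and 798 in DMSO, and rose by 0.61 ± 0.15 in dTAG+I-BET (adjusted p = 0.0262). All dTAG+I-BET libraries of both bins were above all DMSO libraries. These were the 2 PHLDA1 bins called for dTAG+I-BET against DMSO, where 96 of 1960 were called (4.9%) and 68 rose (3.47%). Each call was lost without any 1 of the DMSO or dTAG+I-BET libraries (adjusted p up to 0.161 for the near bin and 0.181 for the far bin), and 9 PHLDA1 bins were called without dTAG replicate 3. KRR1 had 0 called bins in that comparison by limma (24 at an unadjusted p under 0.05, 12 by edgeR), and 11 without dTAG replicate 3. Over all viewpoints the same rules gave 309 of 1960 bins (15.8%), 180 of 1960 (9.18%) and 199 of 1960 (10.2%).

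For dTAG+I-BET against dTAG, 0 of 1960 bins were called by limma (0.0%), and at an unadjusted p under 0.05 there were 1 of KRR1 and 10 of PHLDA1, with 0 by edgeR for either gene. Over all viewpoints 122 of 1960 bins passed at that unadjusted p (6.22%), and edgeR called 0. The lowest p of KRR1 was at 60 to 70 kb on its outer side (chr12:75441636-75451635), with 559, 675 and 644 per kb in dTAG+I-BET and 536, 506 and 386 in dTAG. That of PHLDA1 was at 40 to 50 kb on its outer side (chr12:76071776-76081775), with 1131, 1014 and 1064 per kb in dTAG+I-BET and 824, 779 and 592 in dTAG. The groups did not overlap in either bin, at 0.40 and 0.56 on the log2 scale (adjusted p = 0.713 each).

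The 3 highest bins of KRR1 in DMSO lay within 30 kb of its start, at 10 to 20 kb on the inner side (2128, 2041 and 1955 per kb) and at 10 to 20 and 20 to 30 kb on the outer side (means of 1670 and 1306). Of the 3 highest of PHLDA1, 2 lay at 10 to 20 kb (means of 1597 on the outer and 1531 on the inner side). The third lay 280 to 290 kb away on the inner side (chr12:75741776-75751775), over site 6, with 1080, 947 and 1039 per kb in dTAG+I-BET, 1172, 1070 and 817 in dTAG and 1152, 1029 and 1365 in DMSO. The groups overlapped there.

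Other protein-coding promoters lay only on the outer sides. KRR1 had 5 within 500 kb and PHLDA1 2, and none was called in any comparison. Over all viewpoints 2 of 174 were called for dTAG against DMSO (1.15%), 1 of 174 for dTAG+I-BET against DMSO (0.575%) and 0 with dTAG+I-BET against dTAG (0.0%). At an unadjusted p under 0.05 limma gave 0 for either gene against DMSO and 1 for each gene between dTAG+I-BET and dTAG, and edgeR called 0 in all. Over all viewpoints 15 of 174 passed at that unadjusted p between dTAG+I-BET and dTAG (8.62%). Against DMSO it was 23 (13.2%) for dTAG and 24 (13.8%) for dTAG+I-BET. GLIPR1, which encodes a protein of the CAP superfamily, lies 30.9 kb from KRR1 and had 1172, 1265 and 1290 per kb in dTAG+I-BET, 1105, 1112 and 676 in dTAG and 1152, 1074 and 1013 in DMSO. NAP1L1, which encodes a histone chaperone, lies 53.0 kb from PHLDA1 and had 540, 625 and 532 per kb in dTAG+I-BET, 465, 453 and 406 in dTAG and 511, 443 and 487 in DMSO.

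At both promoters the dTAG+I-BET libraries were above all DMSO and all dTAG libraries, at 0.20 (adjusted p = 0.572) and 0.23 (adjusted p = 0.519) against DMSO and 0.40 (adjusted p = 0.369) and 0.36 (adjusted p = 0.552) against dTAG. How many of the 174 promoters of all viewpoints were separated in this way is not given here. Of those 174, 106 were above 0 for dTAG+I-BET against dTAG and 87 against DMSO. CAPS2 and GLIPR1L2, whose start sites lie next to each other 121 kb from KRR1, GLIPR1L1 and KCNC2 on the KRR1 side and BBS10 (a chaperonin-like gene of Bardet-Biedl syndrome) on the PHLDA1 side overlapped between all groups.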

How the data were processed

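Capture-C libraries were made from HCT-116 MED14-dTAG cells with DpnII, and per the labels and methods the authors mapped them to hg38 with CapCruncher. The deposited signal values are interactions per restriction fragment, scaled by the authors per viewpoint and library; each value was a whole multiple of 1 step per library (100% of values, tolerance 0.01), which gave the interactions back. The methods call the libraries biological replicates; the deposited columns number them TR and the sources used here do not say what TR stands for, so if they were technical replicates the p-values would measure technical spread only. How they were filtered for PCR duplicates is not given in the sources used here.

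Signal was summed over fragments into 10-kb bins, distance bands, promoters and cohesin-lost sites (5 kb added on each side) and divided by length. log2(signal per kb + 1) was fitted with limma 3.58.1 (R 4.3.3) over all 9 libraries and 20 viewpoints, after a filter on mean signal of 2 per kb, with Benjamini-Hochberg adjustment over all regions of a kind and a threshold of 0.05. Fold changes are on that scale. Alternatives were edgeR 4.0.16 on the interactions, equal totals from 10 to 1000 kb, other pseudocounts (0.5 and 5), filters, bins and windows, a replicate block, a fit of 2 groups and leaving out each library. Single ratios were compared with two-sided exact permutation tests, for which 3 against 3 libraries cannot go below 0.1. Scripts were tested on simulated data. For simulated dTAG against DMSO, limma called 84 of 100 bins with a log2 change of 1 and 21 of 100 with 0.5. It called 6 of 1760 simulated bins without a change. A region that was not called may therefore still have changed by such an amount. The other tools were scipy 1.17.1, pandas 2.3.3 and numpy 2.4.6 under Python 3.11.15, and matplotlib 3.10.9 drew the plots.

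Named with values were the 12 sites, every called region, the bin with the lowest p where none was called, the 3 highest bins in DMSO per gene and protein-coding genes with a start within 100 kb. The genes, the lists and the tests were chosen with earlier results of these data known. Gene starts are from GENCODE 44 and promoter sequences from RefSeq (GRCh38); site positions come from the study's SMC1A list. Same-numbered libraries did not deviate together, so no pairing was used.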

Additional observations from a re-analysis of the deposited data

How the results depend on the processing

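With equal totals from 10 to 1000 kb, limma called 4 KRR1 bins for dTAG and 8 for dTAG+I-BET against DMSO, 1 and 6 PHLDA1 bins, 7 KRR1 sites for dTAG+I-BET, 1 and 3 PHLDA1 sites, 2 and 4 KRR1 bands and 4 PHLDA1 bands for dTAG+I-BET. With the replicate block, which rests on numbers that do not pair the libraries (correlation of same-numbered libraries -0.06 to 0.23, and 3 of 9 libraries correlated best with their own number), it called 3 and 5 KRR1 bins, 4 KRR1 sites for dTAG+I-BET, 3 and 2 KRR1 bands and 1 PHLDA1 band. With only the 2 groups compared it called 0 and 9 KRR1 bins, 8 PHLDA1 bins, 1 and 4 KRR1 sites, 2 PHLDA1 sites, 4 KRR1 bands and 4 PHLDA1 bands. edgeR called 8 and 12 KRR1 bins, 1 and 8 PHLDA1 bins, 2 and 3 KRR1 bands and 1 and 2 PHLDA1 bands. Over all viewpoints it called 111 and 180 of 1960 bins (5.66% and 9.18%) and 30 and 47 of 160 bands (18.8% and 29.4%). Bins of 5 kb gave 0 for KRR1 (dTAG) and 1 for PHLDA1 (dTAG+I-BET), and bins of 25 kb 3, 1 and 1. Windows of 2.5 kb gave 0 KRR1 sites in either comparison, and windows of 10 kb 2 for dTAG+I-BET. Without 1 library, KRR1 bins ran from 0 to 1 and 0 to 11, PHLDA1 bins from 0 to 1 and 0 to 9, KRR1 sites from 0 to 4 and 0 to 7, PHLDA1 sites from 0 to 1 and 0 to 2, KRR1 bands from 0 to 3 and 1 to 5, and PHLDA1 bands from 0 to 1 and 0 to 4, most of the highest counts coming without dTAG replicate 3. Without that library, 83 and 199 of 1960 bins, 26 and 56 of 153 sites and 36 and 56 of 160 bands were called over all viewpoints. For the remaining settings no count over all viewpoints is given. The counts therefore show how calls moved with the setting and do not compare the 2 genes with others.

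The 12 sites from KRR1 passed the threshold for dTAG with equal totals (-0.29), with the replicate block (-0.37), with edgeR (-0.25) and with 2.5-kb windows (-0.38), and ran from -0.45 to -0.23 without 1 library. For dTAG+I-BET they passed with equal totals (-0.41), with the block (-0.37), with 2 groups (-0.37) and with edgeR (-0.32), and ran from -0.42 to -0.34. From PHLDA1 they passed for dTAG+I-BET with equal totals (-0.14). Small differences changed sign: PHLDA1 for dTAG with edgeR (0.021), dTAG+I-BET against dTAG for KRR1 (0.021 with 2.5-kb windows, -0.15 to 0.083 without 1 library) and PHLDA1 (0.017 with 10-kb windows, -0.073 to 0.043), KRR1 minus PHLDA1 for dTAG+I-BET against dTAG (-0.046 with equal totals, -0.042 with 10-kb windows, -0.073 to 0.082), inner over outer of PHLDA1 for dTAG+I-BET (-0.020 to 0.041), and the PHLDA1 share for dTAG with 2.5-kb windows (0.0045). With 2.5-kb windows the separation of both treatments from DMSO at PHLDA1 was lost for the share and for sites over rest. The wider and narrower windows for shares and ratios were chosen after seeing the data. No call of a promoter changed. The KRR1 outer band from 250 to 500 kb kept its call in each of its alternatives. The cause of these differences was not tested. Depth limits single sites: 34 to 410 interactions stood behind a KRR1 site and 108 to 363 behind a PHLDA1 site.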

Other observations

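Close to PHLDA1, on the side of its gene body from 1.5 to 10 kb, signal was 5010, 5322 and 5777 per kb in dTAG+I-BET, 5493, 5004 and 5558 in dTAG and 4700, 4623 and 3582 in DMSO. All treated libraries were above all DMSO libraries, by 0.32 on the log2 scale in each comparison (exact permutation p = 0.1, the smallest that 3 against 3 libraries allow). This stretch holds 3 cohesin-lost sites, which were left out of the tests above because they lie within 10 kb of the viewpoint. On the upstream side of PHLDA1 and on both sides of KRR1 the groups overlapped. The same stretch of the other viewpoints is not given here, and the cause of the rise was not tested. For regions not sensitive to Mediator depletion, the paper describes some technical variation in Capture-C signal close to the viewpoints.

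Beyond the range described above, from 500 to 1000 kb, the outer side of KRR1 had 103, 97.4 and 96.7 per kb in dTAG+I-BET, 91.1, 82.9 and 108 in dTAG and 73.8, 72.3 and 92.3 in DMSO. The inner side of KRR1, from just before PHLDA1 and including it, had 234, 235 and 231 per kb in dTAG+I-BET, 237, 245 and 197 in dTAG and 218, 225 and 208 in DMSO, so that dTAG+I-BET lay above DMSO on both sides. The inner side of PHLDA1, from just before KRR1 and including it, had 140, 139 and 134 per kb in dTAG+I-BET, 152, 181 and 138 in dTAG and 162, 188 and 159 in DMSO. The dTAG+I-BET libraries were all above the DMSO libraries on both sides of KRR1 and all below them on the inner side of PHLDA1 (exact permutation p = 0.1 each). The same stretches of the other viewpoints are not given here, so these separations were not set against the others. Each stretch was measured from its own gene, and the outer stretch of KRR1 and the inner stretch of PHLDA1 share no sequence. On the outer side of PHLDA1 the groups overlapped (exact permutation p = 0.2 for dTAG+I-BET against DMSO).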
